A study of Arabidopsis thaliana with 12 samples.

Results

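SOB3-D, an Arabidopsis thaliana line that overproduces the AT-hook gene SOB3, was compared directly with pif4 pif5 pif7, a triple mutant of PHYTOCHROME INTERACTING FACTOR genes. Both lines are in the Columbia (Col-0) ecotype, and the 6 libraries of these genotypes, 3 each, were taken from a series of 12 by their labels. The series also held 3 libraries each of Col-0 and of a line labelled sob3-6. Genes under the control of AT-hook (AHL) and PIF factors in young rosettes were the question of the series, whose title concerns petiole growth. The labels call SOB3-D an AHL overexpressor and do not say what drives the gene. The triple mutant carries the alleles pif4-101, pif5 (pil6-1) and pif7-1. All plants, Col-0 included, were 14 days old, and grew without sucrose at 22 °C under white light of about 35 to 55 µmol/m2/s, with days of 16 h and nights of 8 h. Plants were severed at the hypocotyl at ZT4, which is 4 h into the day, and the upper portion was used.

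PIFs are basic helix-loop-helix (bHLH) factors that bind G-box and related E-box sequences and that active phytochrome removes or inhibits, so they promote elongation of hypocotyls and petioles in shade, darkness and warmth. Their known targets include auxin synthesis and auxin response genes, HD-ZIP II factors and small HLH proteins. SOB3 (AHL29) belongs to clade A of the AHL family, nuclear proteins that bind AT-rich DNA and restrain elongation of seedlings. AHL gain and PIF loss are both known to shorten these organs, and the direct comparison asks where the transcriptomes of such plants differ.

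Transcript levels are in ppm, the submitters' scaling of tags to library size, with 1 transcript per gene, and differences are in log2(ppm + 1), SOB3-D minus pif4 pif5 pif7, which understates changes of genes near or below 1 ppm. A gene was called at a limma adjusted p under 0.05. The SOB3-D libraries held 7637822 to 8877404 reads and the pif4 pif5 pif7 libraries 13809707 to 14734732, so the genotypes did not overlap in depth. A value of 0 allows up to 3 reads, which is 0.338 to 0.393 ppm in SOB3-D and 0.204 to 0.217 ppm in the mutant, for counting error only. Within a genotype, pairs of replicates correlated at r = 0.992 to 0.995 across genes, which are not independent. Their counts differed beyond sampling noise, with a chi-square of 1.86 to 3.43 per degree of freedom. The labels leave unsaid whether replicates are separate cultures, and p-values therefore reflect only how these libraries vary, which may be technical. On the first principal component, with 40.7% of the variance of all 12 libraries, SOB3-D lay at 31.3 to 32.3 and pif4 pif5 pif7 at -5.95 to -4.53, beside Col-0 at -8.86 to -8.11. The second component, with 24.1%, set the mutant apart from Col-0. There the mutant lay at 18.95 to 21.26, Col-0 at 4.37 to 6.15 and SOB3-D at -7.26 to -4.43.

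Of 18502 genes tested, 3384 (18.3%) were higher in SOB3-D than in pif4 pif5 pif7 and 2825 (15.3%) were lower. Most differences were small, since 5088 of the 6209 called genes (33.6% of those tested) differed by less than 1.5-fold. At least 2-fold, 237 genes (1.28%) were higher and 76 (0.411%) were lower. The 3 libraries of one genotype lay wholly beyond the 3 of the other for 7808 genes (42.2%), 4267 (23.1%) with SOB3-D above and 3541 (19.1%) with SOB3-D below. Beside the same Col-0 libraries, 11.5% of genes were called higher and 14.8% lower in SOB3-D, and 1.52% higher and 4.84% lower in the mutant.

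**Figure D1:**
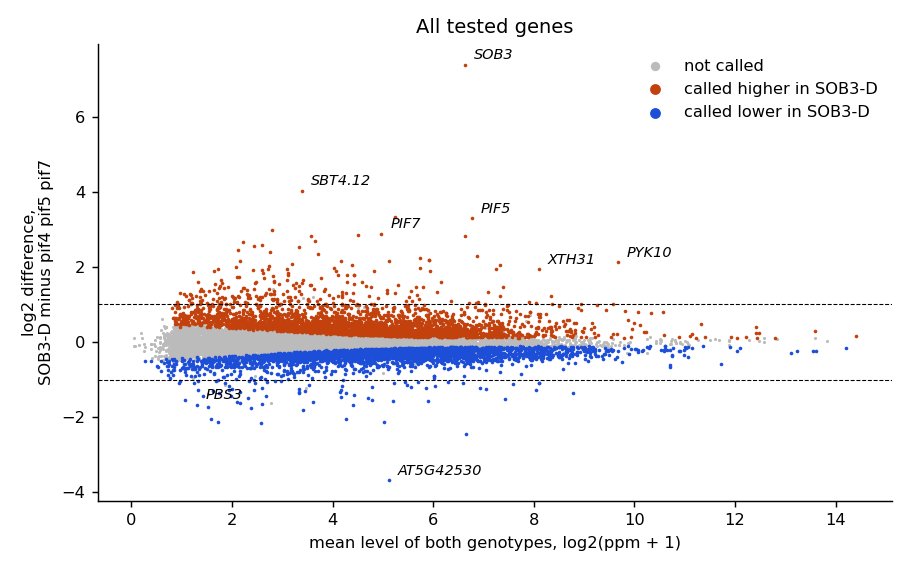
Each point is 1 of 18502 tested genes, plotted by its mean level in SOB3-D and pif4 pif5 pif7 as log2(ppm + 1) and by the log2 difference, SOB3-D minus pif4 pif5 pif7; dashed lines mark 2-fold. SOB3 stands highest at 7.38 and AT5G42530 lowest at -3.67, while most called genes lie inside the dashed lines.

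Most large differences lay on the SOB3-D side of Col-0. Of the 237 genes at least 2-fold higher in SOB3-D, 219 (92.4%) had a Col-0 mean nearer to the mutant, and so did 68 of the 76 at least 2-fold lower (89.5%). Over all tested genes that share was 61.6%. Col-0 lay above both genotypes for 34 of the 76 lower genes (44.7%) and for 3 of the 237 higher genes (1.27%), against 34.3% of all tested genes. It lay below both for 69 of the 237 higher genes and for 1 of the 76 lower genes, against 3579 of all 18502 tested genes. These are counts of means, with no test.

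The altered genes matched the labels. SOB3 (AT1G76500, chromosome 1, 28704963 to 28706691, TAIR10.1) reached 206, 180 and 203 ppm in SOB3-D and stood at 0.0715, 0.136 and 0.362 ppm in pif4 pif5 pif7. The groups lay far apart (log2 difference 7.38, SE 0.10, limma adjusted p = 2.22e-31), and Col-0 was at 0.145 ppm. PIF5 (AT3G59060, chromosome 3, 21827905 to 21830837) was at 194, 208 and 187 ppm in SOB3-D and 21.0, 16.6 and 19.8 ppm in the mutant (3.30, SE 0.06, adjusted p = 5.88e-25). PIF7 (AT5G61270, chromosome 5, 24638491 to 24640765) was at 52.4, 57.0 and 52.6 ppm in SOB3-D and 7.15, 5.97 and 6.30 ppm in the mutant (2.88, SE 0.07, adjusted p = 1.59e-24). PIF4 (AT2G43010, chromosome 2, 17886101 to 17889087) kept the most transcript in the mutant, 72.8, 77.4 and 81.8 ppm against 140, 160 and 143 ppm in SOB3-D (0.92, SE 0.06, adjusted p = 7.72e-14). A level per transcript does not show whether the transcript of a mutant allele is intact.

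The other PIF genes are not among the mutations the labels list. PIF1, which restrains seed germination and greening in the dark, was at 79.1, 86.3 and 84.1 ppm in SOB3-D and 48.6, 51.4 and 52.7 ppm in the mutant, with no overlap (0.70, SE 0.06, adjusted p = 1.15e-10). Its Col-0 mean was 55.5 ppm, near the mutant. PIF3, best known from seedlings in the dark, was at 18.9 to 19.6 ppm against 14.9 to 16.1 ppm (0.30, SE 0.08, adjusted p = 0.00376). DESeq2 on whole reads did not call PIF3 (adjusted p = 0.0508). PIF2 (PIL1), PIF6 and PIF8 were not called (0.05, 0.33 and -0.12, adjusted p = 0.89, 0.064 and 0.15). Of 8 PIF family members 5 were higher in SOB3-D and 0 lower, beside 18.3% and 15.3% of all tested genes. That count includes PIF4, PIF5 and PIF7, whose mutations define the mutant, so only PIF1 and PIF3 add to it.

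**Figure D2:**
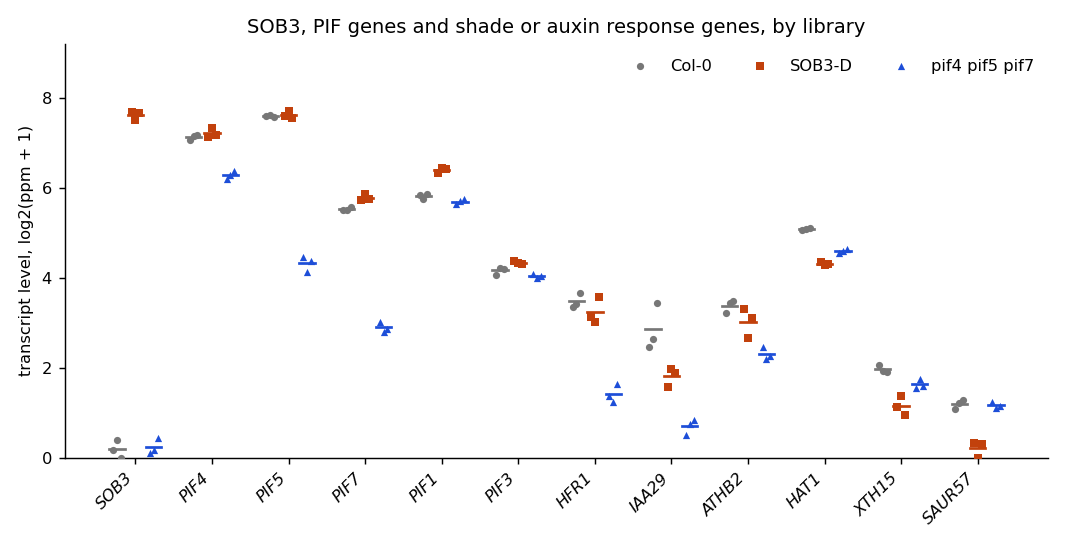
Levels of 12 genes as log2(ppm + 1) in each library (points) with the genotype mean (bars) for Col-0, SOB3-D and pif4 pif5 pif7. SOB3 is high only in SOB3-D of the 3 genotypes shown, PIF5 and PIF7 are low in the mutant, and HFR1, IAA29 and ATHB2 lie lowest in the mutant while HAT1, XTH15 and SAUR57 lie lowest in SOB3-D.

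SOB3 was the single called gene of its own clade, with the other 5 tested clade A genes (AHL15, AHL16, AHL17, AHL20 and AHL28) at differences of -0.41 to -0.03. A further 9 clade A genes in the files were below the expression filter. In clade B, AHL1 was at 6.55, 4.73 and 6.19 ppm in SOB3-D and 1.22, 1.83 and 1.52 ppm in the mutant (1.43, SE 0.16, adjusted p = 2.02e-08). AHL2 also was higher (1.13, SE 0.19, adjusted p = 1.74e-05). In contrast 6 clade B genes, AHL5, AHL9, AHL10, AHL11, AHL12 and AHL14, were lower by small amounts (-0.52 to -0.23), so that 2 of 14 were higher and 6 lower. That is 57.1% called, beside 33.6% of all tested genes.

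Among genes higher in SOB3-D, SBT4.12 had the largest difference after SOB3. SBT4.12, a subtilisin-like protease gene, was at 19.6, 19.1 and 17.4 ppm in SOB3-D and at 0.215, 0.204 and 0.217 ppm in the mutant (4.02, SE 0.16, adjusted p = 1.47e-18). PRR2, a pinoresinol reductase gene of lignan synthesis, was at 11.1, 10.9 and 11.9 ppm against 0.286, 0.747 and 0.652 ppm (2.99, SE 0.18). AHP1, which passes phosphate from cytokinin receptors to response regulators, was at 22.0, 16.8 and 21.2 ppm against 1.86, 1.97 and 1.96 ppm (2.83, SE 0.14). In all 3 genes Col-0 was as low as the mutant, at 0.0831, 0.44 and 1.68 ppm. SBT4.12, PRR2 and AT2G29060, which is listed next, were under 1 ppm in every library of the other genotypes. They passed the expression filter through the 3 SOB3-D libraries alone, so being tested already required at least 1 ppm in SOB3-D. AT1G27030 (3.33), the O-methyltransferase gene OMTF3 (2.86), the polyketide cyclase gene AT4G23680 (2.81), the TRAF-like gene AT5G26260 (2.69) and the GRAS family gene AT2G29060 (2.67) were also among the 15 largest in this direction. AT1G27030 is uncharacterized.

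Among genes lower in SOB3-D, AT5G42530 had the largest difference. AT5G42530, uncharacterized, was at 4.19, 4.39 and 3.39 ppm in SOB3-D and at 78.0, 66.6 and 46.6 ppm in the mutant (-3.67, SE 0.31, adjusted p = 2.88e-05). BT1, a BTB and TAZ domain protein gene, was at 5.76, 7.21 and 6.31 ppm against 26.3, 37.1 and 26.4 ppm (-2.05, SE 0.14, adjusted p = 1.35e-08). IAMT1, whose enzyme methylates the auxin indole-3-acetic acid, was at 1.44, 1.46 and 0.701 ppm against 6.58, 5.09 and 5.50 ppm (-1.63, SE 0.16, adjusted p = 1.14e-09). None of these genes overlapped between the genotypes. the cytochrome P450 gene CYP71B24 (-2.15), the asparaginase gene ASPGB1 (-1.80) and the calmodulin-like touch gene TCH3 (-1.65) were lower as well.

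Known PIF and shade targets split in both directions. HFR1, an HLH protein that binds PIFs and limits their activity, was at 7.72, 7.10 and 11 ppm in SOB3-D and at 1.57, 1.36 and 2.1 ppm in the mutant (1.83, SE 0.15, adjusted p = 5.09e-10). Its Col-0 mean was 10.2 ppm, close to SOB3-D (-0.24 from Col-0, adjusted p = 0.277, against -2.07 in the mutant). IAA29, an Aux/IAA gene that shade induces, was at 1.96, 2.93 and 2.69 ppm against 0.429, 0.679 and 0.797 ppm (1.11, SE 0.21, adjusted p = 0.000453), and at 6.57 ppm in Col-0. It was thus below Col-0 in both lines and lower in the mutant; its call was lost at a pseudocount of 5 ppm (adjusted p = 0.0601). ATHB2, the HD-ZIP II factor of shade responses, was at 8.90, 5.29 and 7.60 ppm against 4.51, 3.6 and 3.77 ppm (0.72, SE 0.15, adjusted p = 0.000461).

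Other targets were lower in SOB3-D. The HD-ZIP II gene HAT1 was at 19.5, 18.5 and 18.7 ppm in SOB3-D and 22.5, 23.2 and 24.0 ppm in the mutant, both below 32.9 ppm in Col-0 (-0.28, SE 0.07, adjusted p = 0.00193). XTH15, a xyloglucan endotransglucosylase gene, was lower without overlap (-0.49, adjusted p = 0.0238), and HAT2 was lower with overlap (-0.30, adjusted p = 0.0278). LNG2 and LNG1, which promote longitudinal cell growth, were higher (0.33 and 0.21), as was PRE1, an HLH growth promoter whose libraries overlapped (0.28). In all, 6 of 20 tested targets were higher and 3 lower, with a median of 0.05 against 0.02 over all tested genes. Among those not called were IAA19 (-0.13, adjusted p = 0.49), YUC8 of auxin synthesis (0.05, adjusted p = 0.88) and PAR2 (0.01, adjusted p = 0.97). Beside the same Col-0 libraries the list's median was -0.32 in SOB3-D and -0.41 in the mutant.

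Auxin response genes were called in both directions. Of 43 tested SAUR genes, small auxin-induced genes of which many promote cell expansion, 9 were lower and 3 higher, with a median of -0.09 (with DESeq2, 5 were lower). The 27.9% called lay below the 33.6% over all genes. SAUR57 was at 0.262, 0 and 0.234 ppm in SOB3-D, which is 2, 0 and 2 reads, and at 1.36, 1.15 and 1.23 ppm in the mutant (-0.95, SE 0.17, adjusted p = 4.32e-05). SAUR78 (-0.42), SAUR60 (-0.77) and SAUR16 (-0.33) were lower too. SAUR32, of a class distinct from the auxin-induced SAUR19 group, was higher at 40.7, 35.8 and 34.0 ppm against 18.4, 18.8 and 21.6 ppm (0.88, SE 0.09, adjusted p = 9.68e-09). Near-identical SAUR genes may share reads. The list's median beside Col-0 was -0.39 in SOB3-D and -0.28 in the mutant.

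Of 21 Aux/IAA repressor genes, 6 were higher and 3 lower, which is 42.9% called beside 33.6% of all tested genes. IAA17 was at 71.4, 73.4 and 69.2 ppm against 48.8, 48.5 and 42.1 ppm (0.61, SE 0.07, adjusted p = 1.52e-08), and IAA16 was higher as well (0.51). IAA1, IAA7 and IAA14 were lower (-0.37, -0.19 and -0.35), IAA1 and IAA14 with overlapping libraries. Of 9 GH3 genes, which encode hormone-conjugating enzymes, 4 were lower and 1 higher, which is 55.6% called. PBS3, the member that acts in salicylic acid synthesis, was at 0, 0.225 and 0.234 ppm in SOB3-D and 3.15, 3.66 and 1.52 ppm in the mutant (-1.67, SE 0.17, adjusted p = 6.6e-09). DFL2 (-0.52), GH3.9 (-0.53) and GH3.3 (-0.43) were the other lower members, and JAR1, which makes the active jasmonate conjugate, was the higher one (0.45).

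Auxin carriers moved in opposite directions. ABCB19, an auxin exporter, was at 220, 230 and 240 ppm in SOB3-D and 123, 131 and 137 ppm in the mutant (0.81, SE 0.05, adjusted p = 2.03e-13), with Col-0 between them at 181 ppm. The importers AUX1 (0.44) and LAX3 (0.56) were higher too, while the exporters PIN3 (-0.23) and PIN4 (-0.18) were lower. PIN3 was below its Col-0 mean of 164 ppm in both lines, at 109 and 128 ppm. Auxin synthesis genes TAA1 (0.32) and TAR2 (0.30) were higher, and the list of 23 held 5 higher and 4 lower members. The share called was 39.1%, beside 33.6% of all tested genes.

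Brassinosteroid genes were higher in SOB3-D wherever they were called. In the synthesis and inactivation list 7 of 15 were higher and 0 lower, which is 46.7% called beside 33.6% of all tested genes. ROT3, a cytochrome P450 of brassinosteroid synthesis known for leaf and petiole length, was at 19.9, 19.7 and 20.2 ppm in SOB3-D and 5.72, 7.26 and 7.97 ppm in the mutant (1.40, SE 0.11, adjusted p = 9.32e-12). DWF4, which acts at a limiting step of synthesis, was at 18.7, 19.0 and 23.4 ppm against 11.8, 12.3 and 12.8 ppm (0.68, SE 0.09, adjusted p = 1.02e-06). BR6OX2 (0.43), DET2 (0.52), DWF1 (0.29), CPD (0.28) and BAS1, which inactivates brassinosteroids (0.85), were higher as well. Among signalling and HLH growth factors, 11 of 17 were higher and 0 lower, which is 64.7% called. These included the kinase BIN2, a repressor of the pathway (0.55), the factor BES1 (0.32), the bHLH activators HBI1 (0.34) and BEE3 (0.48) and the inhibitors AIF1, AIF2 and AIF3 (0.45, 0.33 and 0.22). HBI1 and BEE3 lay at 120 and 22.2 ppm in SOB3-D, near Col-0 at 121 and 22.5 ppm, and at 94.7 and 15.6 ppm in the mutant.

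Called gibberellin genes were higher in SOB3-D with 1 exception. GA3OX1, which makes bioactive gibberellin, was at 13.5, 15.2 and 16.9 ppm in SOB3-D and 4.15, 4.41 and 3.84 ppm in the mutant (1.66, SE 0.13, adjusted p = 1.03e-11), beside 5.42 ppm in Col-0. GA3 (0.63) and KAO1 (0.70) of earlier synthesis steps, the DELLA gene RGA (0.36) and the receptor gene GID1B (0.54) were higher, and GASA6, a gibberellin-induced peptide gene, was lower (-0.45). Of 20 tested, 7 were higher and 1 lower, which is 40.0% called beside 33.6% of all tested genes.

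Cytokinin response genes were higher in SOB3-D where they were called. ARR5, a type-A response regulator that cytokinin induces, was at 13.4, 11.4 and 13.0 ppm in SOB3-D and 2.65, 2.71 and 3.11 ppm in the mutant (1.83, SE 0.14, adjusted p = 1.74e-11). ARR6, of the same type, was at 20.4, 20.6 and 18.5 ppm against 6.22, 5.29 and 4.85 ppm (1.69, SE 0.14, adjusted p = 2.93e-10). IPT3, a cytokinin synthesis enzyme gene, was at 20.7, 25.6 and 24.3 ppm against 10.3, 10.9 and 11.9 ppm (1.02, SE 0.10, adjusted p = 1.55e-09). None of the 3 overlapped, and their Col-0 means were 4.57, 6.04 and 10.4 ppm. The receptors AHK2, AHK3 and AHK4 were higher by 0.18 to 0.51, and LOG1, a cytokinin-activating enzyme gene, was lower (-0.48). In all 10 of 22 were higher and 1 lower.

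In the ethylene list 8 of 19 genes were higher and 2 lower, which is 52.6% called beside 33.6% of all tested genes. ACO4, of the last step of ethylene synthesis, was at 263, 272 and 254 ppm against 156, 149 and 163 ppm (0.75, SE 0.05, adjusted p = 2.44e-13), with Col-0 at 280 ppm. The signalling genes EIN2, EIN3, EIL1, EBF1 and EBF2 were higher by 0.16 to 0.33, each with a Col-0 mean nearer to SOB3-D. The synthase genes ACS4 (-0.87) and ACS6 (-0.75) were lower.

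Cell wall genes differed by member. XTH31 was at 452, 420 and 429 ppm in SOB3-D and 130, 105 and 103 ppm in the mutant (1.94, SE 0.08, adjusted p = 3.67e-11), beside 84.8 ppm in Col-0. XTH7 was higher (0.74), whereas XTH24 (-0.86), XTH28 (-0.37), XTH9 (-0.28) and XTH6 (-0.20) were lower, so that 4 of 18 XTH genes were higher and 5 lower. Without either the second or the third mutant library, 2 were higher. Of 14 alpha-expansins, which loosen walls, 6 were higher, led in p by EXPA11 at 48.4, 54.9 and 47.8 ppm against 29.7, 30.4 and 32.0 ppm (0.69, SE 0.07, adjusted p = 2.8e-09), and EXPA1 (-0.43) and EXPA5 (-0.30) were lower.

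Water channel genes were mostly higher in SOB3-D. Of 17 aquaporins 11 were higher and 1, PIP2;8, lower (-0.25), which is 70.6% called beside 33.6% of all tested genes. TIP1;1 of the vacuole membrane was at 494, 459 and 479 ppm against 248, 247 and 236 ppm (0.97, SE 0.04, adjusted p = 5.8e-17). PIP2B of the plasma membrane was at 238, 221 and 239 ppm against 128, 119 and 109 ppm (0.97, SE 0.05), and its neighbour PIP2C, a close copy that may share reads, was higher by 0.79. The list's median was 0.28.

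Nearly all ER body genes were higher in SOB3-D. ER bodies are compartments of the endoplasmic reticulum in Brassicales that store beta-glucosidases, which act on glucosinolates and related glucosides when tissue is damaged. NAI1 is a bHLH factor required for them, NAI2 a protein of their formation, PYK10 their main beta-glucosidase, and jacalin-related lectins (JAL) assemble with PYK10. Of 16 tested genes 15 were higher and 0 lower, 12 by at least 2-fold, with a median of 1.22 against 0.02 over all genes. Beside Col-0 the median was 1.1 in SOB3-D and -0.02 in the mutant. Root markers, read because PYK10 is known to be abundant in roots, summed to overlapping levels in the lines (48.1 to 55.0 and 50.5 to 53.8 ppm). Only 3 of the 14 passed the expression filter, and 1 of these, PHT1;1, was called higher in SOB3-D. A difference in root tissue was not tested. The exception in the list was BGLU18, at 254, 242 and 322 ppm against 206, 193 and 156 ppm (0.55, SE 0.19, adjusted p = 0.0581).

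Members of the list beyond JAL31, MEB1, JAL33 and JAL22, the 4 with the lowest p, are named here after their values were seen. PYK10 was at 1398, 1374 and 1211 ppm in SOB3-D and 303, 281 and 326 ppm in the mutant, with no overlap (2.13, SE 0.11, adjusted p = 3.31e-07). NAI2 was at 184, 182 and 157 ppm against 83.7, 81.6 and 92.3 ppm (1.01, SE 0.09, adjusted p = 2.14e-06). NAI1 itself differed less, at 7.99, 8.34 and 8.06 ppm against 3.29, 5.84 and 4.85 ppm (0.72, SE 0.14, adjusted p = 0.000142). Among lectins, JAL22 was at 194, 207 and 180 ppm against 40.3, 39.2 and 37.1 ppm (2.28, SE 0.12), JAL33 was higher by 2.18, and JAL31 by 1.6. The lectin genes PBP1, JAL31, JAL33, JAL34 and JAL35 lie within one stretch of chromosome 3 and JAL22 near JAL23 on chromosome 2, and near-identical copies may share reads. TSA1 and JAL23 were the members called lower in the mutant than in Col-0 (31.9 against 53.9 ppm, and 2.80 against 6.85 ppm).

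**Figure D3:**
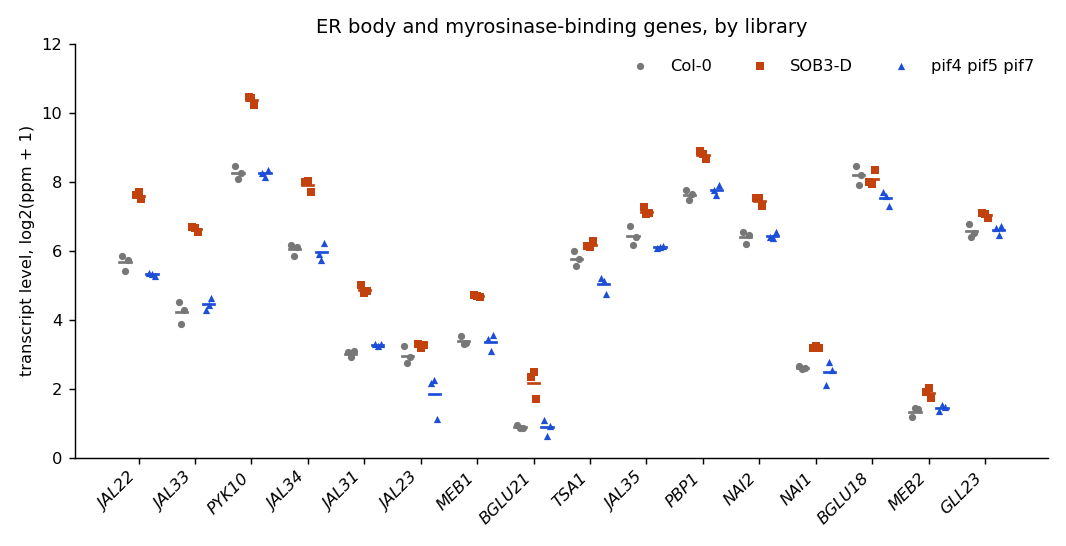
Levels of the 16 tested ER body and myrosinase-binding genes as log2(ppm + 1) in each library (points) with the genotype mean (bars), ordered by the difference between SOB3-D and pif4 pif5 pif7. In 15 genes SOB3-D was called higher than the mutant, and for most of them Col-0 and the mutant lie close together.

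Promoters of 5 genes with called differences are given because PIFs and NAI1 are bHLH factors and bHLH factors bind such motifs. Each is the 300 bases before the annotated start on the gene's own strand, 5′ to 3′, from RefSeq's TAIR10.1 genome, with G-boxes (CACGTG) and PBE-boxes (CACATG or CATGTG, either strand) in capitals; the motifs were allowed to overlap. NAI1 and NAI2 were the 2 called ER body genes with a G-box in this window, in NAI2 86 bases before the start, PYK10 and HFR1 had neither motif there, and LNG2 had a PBE-box.
NAI1 (chr2:9684262-9684561, plus strand): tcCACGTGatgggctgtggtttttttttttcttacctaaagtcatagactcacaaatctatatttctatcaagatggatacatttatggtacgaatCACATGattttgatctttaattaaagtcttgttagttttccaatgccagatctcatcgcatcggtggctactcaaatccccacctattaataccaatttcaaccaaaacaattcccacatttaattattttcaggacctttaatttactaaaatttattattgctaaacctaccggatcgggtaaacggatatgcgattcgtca
NAI2 (chr3:5402654-5402953, minus strand): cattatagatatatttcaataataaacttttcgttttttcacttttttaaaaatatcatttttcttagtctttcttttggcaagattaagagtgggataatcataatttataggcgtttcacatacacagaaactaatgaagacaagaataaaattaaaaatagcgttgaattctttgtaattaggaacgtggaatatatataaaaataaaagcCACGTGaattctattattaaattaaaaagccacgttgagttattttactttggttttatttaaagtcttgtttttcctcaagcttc
PYK10 (chr3:2843782-2844081, minus strand): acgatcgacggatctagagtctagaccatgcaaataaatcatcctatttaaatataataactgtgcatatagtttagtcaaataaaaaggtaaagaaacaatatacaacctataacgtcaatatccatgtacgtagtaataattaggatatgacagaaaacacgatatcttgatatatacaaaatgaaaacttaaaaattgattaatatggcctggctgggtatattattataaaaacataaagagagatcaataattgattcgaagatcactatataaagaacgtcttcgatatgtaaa
LNG2 (chr3:399961-400260, minus strand): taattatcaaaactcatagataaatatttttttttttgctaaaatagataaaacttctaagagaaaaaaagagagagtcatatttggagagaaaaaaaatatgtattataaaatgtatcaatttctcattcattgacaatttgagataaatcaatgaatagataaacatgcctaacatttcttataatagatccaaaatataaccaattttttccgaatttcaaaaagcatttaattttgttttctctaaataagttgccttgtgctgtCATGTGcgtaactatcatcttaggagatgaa
HFR1 (chr1:467881-468180, minus strand): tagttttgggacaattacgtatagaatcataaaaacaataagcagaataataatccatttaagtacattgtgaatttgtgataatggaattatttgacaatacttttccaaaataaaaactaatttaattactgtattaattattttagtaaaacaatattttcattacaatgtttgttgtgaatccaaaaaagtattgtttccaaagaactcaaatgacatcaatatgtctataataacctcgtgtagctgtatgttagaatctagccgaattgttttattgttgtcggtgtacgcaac

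A G-box stood in 7.92% of the 18299 promoters read, in 8.1% of those of higher genes and 7.11% of those of lower genes. At 2-fold the shares were 9.28% (22 of 237) and 10.5% (8 of 76). A PBE-box stood in 12.9% of all promoters, 14.4% of higher, 12.9% of lower, 16.9% of 2-fold higher and 15.8% of 2-fold lower genes. Among called PIF and shade targets no G-box was found, and a PBE-box in 2 of 6 higher (LNG1 and LNG2) and 1 of 3 lower members (HAT2). These are letter matches in a short window, given as a description.

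Glucosinolate genes were higher along with the ER body list. Of 16 indole glucosinolate genes 11 were higher and 1, CYP81F3, lower (-0.48), with a median of 0.41. CYP79B2, whose enzyme turns tryptophan into indole acetaldoxime, was at 103, 101 and 116 ppm in SOB3-D and 35.1, 30.0 and 38.2 ppm in the mutant (1.6, SE 0.09, adjusted p = 2.4e-11). CYP79B3, of the same step, was higher by 1.34 and MYB34, an activator of the pathway, by 0.85 (67.9 ± 0.94 against 37.2 ± 1.3 ppm, SD, n = 3). Of 25 aliphatic genes 18 were higher and 2, FMO_GS-OX5 and FMO_GS-OX3, lower. The shares called were 75.0% of indole and 80.0% of aliphatic genes, beside 33.6% of all tested genes. MAM3, a chain elongation enzyme gene, was at 92.0, 119 and 84.4 ppm against 19.6, 23.8 and 18.9 ppm (2.19, SE 0.14, adjusted p = 8.99e-07), and BCAT4, which starts methionine chain elongation, was higher by 0.67. The medians beside Col-0 were 0.32 in SOB3-D and -0.10 in the mutant for indole genes, and 0.20 and -0.20 for aliphatic genes.

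Jasmonate genes were higher in 14 of 28 cases and lower in 1, LOX3 (-0.45). That is 53.6% called, beside 33.6% of all tested genes. The synthesis genes AOC1 (0.91), AOC4 (0.73), OPR3 (0.46) and LOX2 (1.00, at 649, 713 and 582 ppm against 377, 325 and 274 ppm) were higher, and so was the repressor JAZ1 (1.06). AOC genes are close copies and may share reads. Salicylic acid genes were divided, with 4 of 18 higher (EDS1, ICS1, PAD4 and EDS5, by 0.42 to 0.52) and 5 lower. Besides PBS3, the lower ones included ACD6, an ankyrin protein gene that raises salicylic acid, at 1.31, 1.13 and 1.75 ppm against 7.94, 7.06 and 6.08 ppm (-1.75, SE 0.23, adjusted p = 0.000147). The lower count was 3 with the replicate number as a block, at a pseudocount of 5 ppm, and without the second mutant library or any one SOB3-D library.

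Called genes of the drought list were higher in SOB3-D, and those of the cold list were higher with 2 exceptions. Of 25 abscisic acid and drought genes 12 were higher and 0 lower, although 7 were higher without the second SOB3-D library. In the main fit 48.0% of the list were called, beside 33.6% of all tested genes. RAB18, a dehydrin gene, was at 25.1, 33.1 and 26.5 ppm against 15.7, 16.8 and 13.4 ppm (0.84, SE 0.10, adjusted p = 5.76e-08), and RD26, a NAC factor, was higher by 0.95. Of 16 cold genes 11 were higher and 2 lower, which is 81.25% called. RCI2B, of a small membrane protein, was at 6.15, 7.10 and 8.65 ppm against 2.15, 1.76 and 1.38 ppm (1.59, SE 0.16, adjusted p = 2.54e-09). COR15A, a cold-induced plastid protein gene, went the other way at 9.30, 8.56 and 14.6 ppm against 38.7, 30.0 and 22.4 ppm (-1.41, SE 0.23, adjusted p = 0.00167), as did its neighbour COR15B (-0.70).

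Histone and Calvin cycle genes were lower in SOB3-D than in the mutant almost throughout. Of 22 core and linker histone genes 19 were lower and 2 higher, with a median of -0.38. HTA6, an H2A gene, was at 78.6, 73.1 and 85.5 ppm in SOB3-D and 115, 113 and 127 ppm in the mutant (-0.58, SE 0.06, adjusted p = 1.95e-09). HTB2, an H2B gene, was at 151, 155 and 152 ppm against 204, 204 and 221 ppm (-0.45, SE 0.05, adjusted p = 8.32e-09). The higher ones were HTA4 (0.73) and HIS1-3, a drought-inducible linker histone gene, at 9.95, 9.80 and 13.3 ppm against 5.15, 3.87 and 3.69 ppm (1.2, SE 0.13). Beside Col-0 the median of the list was -0.20 in SOB3-D and 0.16 in the mutant, so the lines lay on opposite sides of it. Near-identical histone genes may share reads, and in whole shoots fewer dividing cells and less RNA per cell cannot be told apart.

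Cell division genes were lower in 20 of 47 cases and higher in 4, which is 51.1% called beside 33.6% of all tested genes. CYCD3;2, a D-type cyclin gene of G1, was at 54.5, 52.0 and 56.4 ppm against 79.3, 76.8 and 79.8 ppm (-0.53, SE 0.05, adjusted p = 5.18e-09). KNOLLE, a syntaxin of the cell plate (-0.38), and the replication factor genes PCNA1 and PCNA2 (both -0.37) were lower too. The 4 higher genes were the Aurora kinase gene AUR2 (0.69) and the cyclin-dependent kinase inhibitor genes SMR2 (0.60), SIM (0.38) and KRP2 (0.31). With DESeq2, 2 were higher. The lower count was 13 with DESeq2 or without the first mutant library and 12 without the third.

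Of 23 Calvin cycle genes 19 were lower and 1, CP12-3, was higher (0.45), with a median of -0.21. Beside Col-0 the median was -0.05 in SOB3-D and 0.13 in the mutant. In SOB3-D 1 was called higher and 7 lower than in Col-0, and in the mutant 11 higher and 0 lower. CP12-2, a regulator of the cycle, was at 118, 125 and 107 ppm against 209, 213 and 192 ppm (-0.81, SE 0.07, adjusted p = 3.29e-08). CA2, a carbonic anhydrase gene, was lower by 0.61 and GAPA by 0.41 on the log2 scale. RBCS1A of the Rubisco small subunit, one of several near-identical genes, differed least among those named, at 18427, 17502 and 18246 ppm against 20656, 19777 and 19661 ppm (-0.15, SE 0.03, adjusted p = 0.00111). After quantile normalization 10 of the list were lower and RBCS1A was not called. Of 44 nuclear photosystem genes 15 were higher and 3 lower, which is 40.9% called beside 33.6% of all tested genes. Their median was 0.06 against 0.02 over all tested genes. LHCB2.1 and LHCB2.2 (both 0.24) were not called after quantile normalization.

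**Figure D4:**
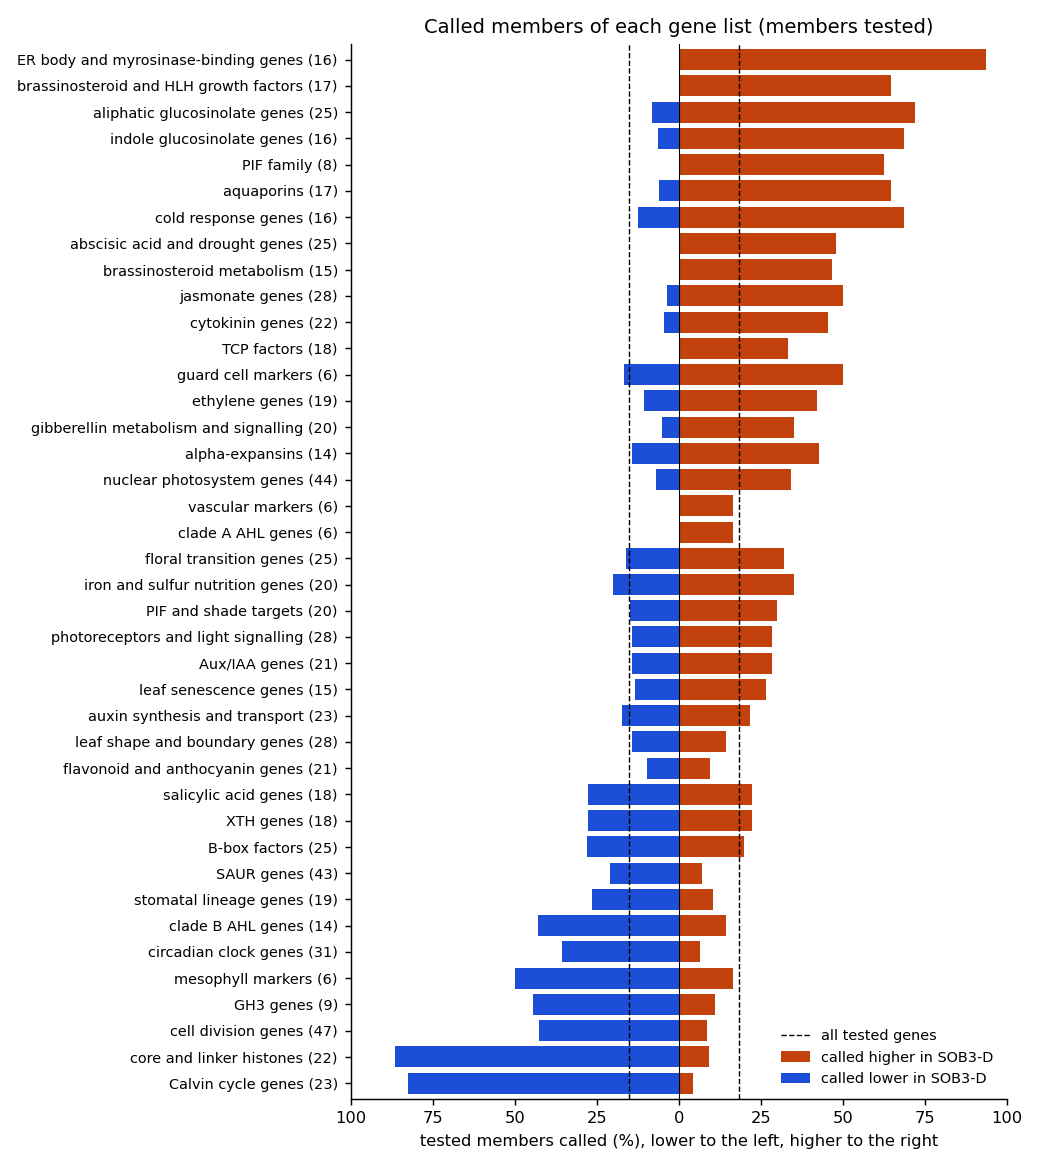
Percent of tested members called higher (right, red) and lower (left, blue) in SOB3-D than in pif4 pif5 pif7 for each list with at least 6 tested members, whose number is in brackets; dashed lines give the shares over all tested genes, 18.3% and 15.3%. ER body genes stand at the top with 15 of 16 higher, and histones and Calvin cycle genes at the bottom with 19 of 22 and 19 of 23 lower.

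Light and clock genes differed modestly. PHYA, the far-red light receptor, was at 116, 120 and 114 ppm in SOB3-D and 61.2, 74.8 and 74.5 ppm in the mutant (0.73, SE 0.06, adjusted p = 9.97e-11), while PHYB was not called (0.02, SE 0.05, adjusted p = 0.777). Of 28 light signalling genes 8 were higher and 4 lower. The share called was 42.9%, that of the B-box list below 48.0%, that of the clock list below 41.9%, and that of all tested genes 33.6%. BBX21, a B-box activator of light responses, was at 60.4, 69.3 and 62.2 ppm against 25.9, 32.0 and 30.5 ppm (1.09, SE 0.07, adjusted p = 6.63e-13), among 5 higher and 7 lower of 25 B-box genes. Of 31 clock genes 11 were lower and 2 higher, with CDF1 (-0.43) and RVE1 (-0.47) lower and CDF3 (0.32) higher. The lower clock count was 7 without the first mutant library or without the third SOB3-D library, and the lower B-box count was 4 without the latter.

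Flowering regulators moved on both sides of the pathway. SOC1, a MADS factor that promotes flowering, was at 26.1, 28.7 and 30.1 ppm in SOB3-D and 42.8, 51.2 and 49.0 ppm in the mutant (-0.73, SE 0.07, adjusted p = 9.75e-09), and its partner AGL24 was lower too (-0.39). The repressors TOE1 (0.66), TOE2 (0.40), SMZ (0.64) and SVP (0.22) were higher. FLC, the repressor that cold silences, was at 6.68, 3.72 and 3.51 ppm against 1.65, 1.02 and 2.24 ppm (1.08, SE 0.18, adjusted p = 3.43e-05). Of 25 floral transition genes 8 were higher and 4 lower, or 4 higher when genes under a mean of 5 ppm were left out. The share called was 48.0%, beside 33.6% of all tested genes, and the median was -0.04 against 0.02.

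TCP factors were higher in 6 of 18 cases, by 0.19 to 0.37, or in 2 with DESeq2. That is 33.3% called, the same as the 33.6% over all tested genes to within 1 percentage point. The called shares of the stomatal, leaf shape, flavonoid and senescence lists below were 36.8%, 28.6%, 19.05% and 40.0%. For iron and sulfur genes the share was 55.0%. Of 19 stomatal lineage genes 2 were higher and 5 lower, among them the receptor kinase gene ER (-0.35). Leaf shape genes had 4 of 28 higher and 4 lower, with YAB1 (-0.32) lower and REV (0.25) higher. In the flavonoid list 2 of 21 were higher and 2 lower, with FLS1 lower (-0.48), and its medians beside Col-0 were 0.27 in SOB3-D and 0.31 in the mutant. ORE1, a NAC factor of leaf senescence, was at 7.72, 10.8 and 10.9 ppm against 3.15, 1.90 and 2.53 ppm (1.62, SE 0.18, adjusted p = 7.23e-08), in a list with 4 of 15 higher and 2 lower. Iron and sulfur genes were divided, with 7 of 20 higher, such as the sulfate reduction gene APR1 (0.74), and 4 lower, such as the ferritin genes FER1, FER3 and FER4 (-1.09, -1.07 and -0.82). FER1 varied widely in the mutant, at 232, 312 and 600 ppm (adjusted p = 0.0477). The lower count was 2 in a fit of the 6 libraries alone and without the third SOB3-D or the second mutant library, and the higher count was 3 among genes with a mean of at least 5 ppm.

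**Figure D5:**
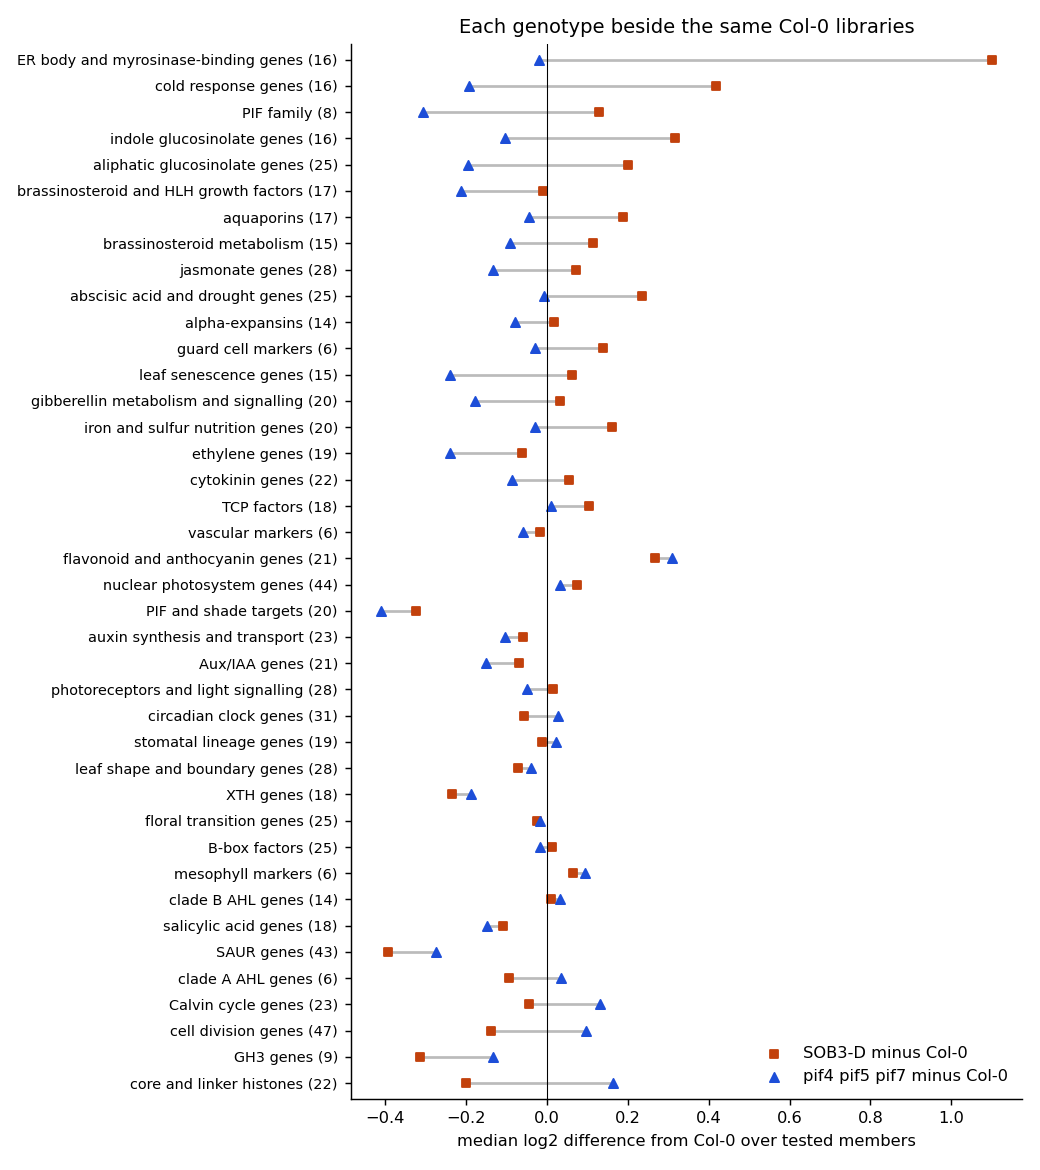
Median log2 difference from Col-0 over the tested members of each list for SOB3-D (squares) and for pif4 pif5 pif7 (triangles), ordered by the median direct difference; both use the same Col-0 libraries. PIF and shade targets and SAUR genes lie left of 0 in both lines, ER body genes right of 0 in SOB3-D at 1.1, and histones on opposite sides at -0.20 and 0.16.

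For a minority of genes past 2-fold, the mutant lay farther from Col-0 than SOB3-D did. There were 18 such genes higher in SOB3-D and 8 lower, picked by their Col-0 means and given as a description. Besides PIF5, PIF7, HFR1 and IAA29, the 18 held ASN1, an asparagine synthetase gene induced in the dark, at 20.9, 26.6 and 28.2 ppm in SOB3-D, 3.79, 9.03 and 8.18 ppm in the mutant and 23.0 ppm in Col-0. AT3G16800, a protein phosphatase 2C gene, was at 25.2 ppm in SOB3-D, 5.62 ppm in the mutant and 19.8 ppm in Col-0 (1.98, SE 0.10, adjusted p = 2.94e-16). ESM1, which steers glucosinolate breakdown toward isothiocyanates, was at 1018, 502 and 823 ppm in that order (1.03, SE 0.07, adjusted p = 5.4e-08). The floral repressor MAF5 and FLC were in this set as well. Among the 8 lower genes, AT2G41640 of glycosyltransferase family 61 was at 15.7 ppm in SOB3-D, 37.3 ppm in the mutant and 7.55 ppm in Col-0 (-1.21, SE 0.11, adjusted p = 1.08e-09), so both lines were above Col-0. ELIP2, an early light-induced protein gene, was at 2.58, 6.22 and 3.94 ppm (-1.02, SE 0.16).

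The genes beside SOB3 were read as well, 10 on each side. HMG1, its direct neighbour in the annotation, which encodes an HMG-CoA reductase of sterol synthesis, was at 331, 370 and 346 ppm in SOB3-D and 201, 208 and 208 ppm in the mutant (0.76, SE 0.05, adjusted p = 4.4e-13), with Col-0 at 253 ppm. On the other side the direct neighbour AT1G76510 was not called (0.08, SE 0.09, adjusted p = 0.543). ATL8 (0.51), AT1G76460 (0.49), CP12-3 (0.45) and AT1G76590 (0.76) were higher and AT1G76405 (-0.26), the auxin carrier-like gene PILS4 (-0.59) and LHCB7 (-0.29) lower. Thus 8 of 18 tested neighbours were called, beside 33.6% of all genes. With DESeq2 the calls of AT1G76405, ATL8, PILS4 and CP12-3 were lost, and 1 or more single libraries also decided those of AT1G76405, ATL8, PILS4 and LHCB7.

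Markers of other tissues were compared between the lines. Mesophyll markers summed to 64241 to 68675 ppm in SOB3-D and 67971 to 70860 ppm in the mutant, and of the 6, LHCB2.1 was higher (0.24) and RBCS1A, CA1 and RCA lower (-0.15, -0.16 and -0.24). Of root markers 3 of 14 passed the expression filter, and PLT1, PLT2 and RSL4 were at 0 in all 6 libraries. Among the 3 tested root markers, PHT1;1 was higher in SOB3-D (0.75, SE 0.20, adjusted p = 0.0041). Flower markers summed to 3.39 to 4.45 and 3.79 to 4.95 ppm with AP1 at 0, and seed and embryo markers to 0.351 to 1.01 and 0.204 to 0.434 ppm, of which none of 7 passed the filter. Guard cell markers summed to 149 to 177 and 150 to 167 ppm, with KAT1, SCAP1 and FAMA higher and GC1 lower in SOB3-D (FAMA not with DESeq2, and neither FAMA nor SCAP1 without the first mutant library), and vascular markers to 270 to 283 and 253 to 283 ppm, with 1 of 6 called (XCP1, 0.47).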

How the data were processed

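RNA from shoots was read as stranded mRNA libraries, per the labels' protocols. The submitters' processing notes name bcl2fastq, Bowtie 1.2.1 and TAIR10. The sources used here do not say how tags were assigned or whether strand was used. The deposited values are a signal per transcript in ppm, which the authors computed for 32950 transcripts of 25089 genes. Every ppm value was a whole multiple, within 0.01 reads, of what 1 read is worth, which gave whole reads and the depths.

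The transcript with the highest mean over the 12 libraries stood for each gene, and genes at 1 ppm or more in at least 3 libraries were kept. limma 3.58.1 (R 4.3.3, trend and robust) was fitted to log2(ppm + 1) of all 12 libraries with 1 coefficient per genotype, 8 residual degrees of freedom and Benjamini-Hochberg adjustment over 18502 genes. Alternatives, 18 in all, changed scaling, pseudocount, filter, libraries or features in the fit, added the replicate number as a block, left out each library, or used edgeR 4.0.16 or DESeq2 1.42.0 on whole reads. Only the main form of the limma fit, to log2(ppm + 1), was tested on simulated data.

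The comparison, its gene lists and their members were chosen with earlier results of these data known; 3 list entries matched no gene. Named by rule were the altered genes and the 15 largest called differences each way. The 15 were ranked among genes without overlap and at 5 ppm or more in the higher genotype. Also named were up to 4 called members of lowest p in each list with more than a single called member. The called PIF and clade A genes, and the called genes among 10 on each side of SOB3, completed the set. Other list members and the genes set beside Col-0 were named after their values were seen. Near-identical genes may share reads. Intervals for 0 cover counting error only.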

Additional observations from a re-analysis of the deposited data

Results flagged for a closer look

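SOB3 was at a mean of 227 ppm in the 3 libraries labelled sob3-6, against 0.145 ppm in Col-0 and 196 ppm in SOB3-D. This signal, outside the comparison, stood above the control level. The difference between SOB3-D and the mutant does not use the sob3-6 means. The sob3-6 libraries did enter the expression filter, the choice of transcript, the principal components and the fit's estimate of spread.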

How the results depend on the processing

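All 181 genes named by rule were called in the main fit to these libraries, which made a change of direction unlikely from the start. None changed direction under any of the 18 alternatives that tested it. The excess of higher over lower genes in the main fit did reverse in some. Quantile normalization gave 2809 higher and 3219 lower genes, and median-of-ratios scaling 3049 and 3098. A further scaling method, TMM, gave 3051 and 3099. With edgeR the counts were 2895 and 2903, and with DESeq2 on whole reads 2242 and 2263. The counts at 2-fold depended on the pseudocount and the tool. Higher genes numbered 386 at a pseudocount of 0.1 ppm, 92 at 5 ppm, 129 at a mean of at least 5 ppm, 398 with edgeR and 378 with DESeq2. Lower genes numbered 162 at 0.1 ppm, 32 at 5 ppm, 170 with edgeR and 152 with DESeq2. Leaving out 1 library gave 2777 to 3140 higher and 2344 to 2645 lower genes; an arm left with 2 libraries shares the spread of the other genotypes. Of 181 genes named by rule, 10 lost their call with DESeq2, 6 after quantile normalization and 2 to 5 without 1 library. Scaling by median of ratios shifted all differences by -0.02 log2.

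With the replicate number as a block, 3560 genes were higher and 2969 lower. Same-numbered libraries correlated at 0.035, 0.045 and 0.023 in their deviations, below 0.1, so the numbers were not taken to pair the samples, although each library correlated best with its own number. Shallower SOB3-D libraries limit what can be said of genes near 0 there.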
